A study of Mus musculus with 6 samples.

Results

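The genes of the PARP family and Parg, the enzyme that removes their product, were examined in C1498 cells given the PARP-1 inhibitor PJ34. The members were 10 genes, Parp1, Parp2, Parp3, Parp9, Parp12, Parp14, Tiparp, Tnks, Tnks2 and Parg, out of 19938 genes with a probe set of their own in the platform's gene table. Each member had 1 such probe set, so no choice between probe sets was needed. C1498 is a murine acute myeloid leukemia line of C57BL/6J background, and both groups were the same line in the same medium. The control group received PBS and the test group PJ34 at 20 μM, each for 48 h, with 3 Affymetrix Mouse Gene 1.0 ST arrays per group. Array medians ran from 4.41 to 4.46, and arrays correlated at 0.992 to 0.995 within groups and 0.992 to 0.994 between them, across probe sets. All values are log2 expression values, so that a difference of 1 is a doubling.

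PARP enzymes take NAD+ and attach its ADP-ribose part to proteins. Parp1 and Parp2 build long chains at broken DNA, which call in repair proteins, and the tankyrases Tnks and Tnks2 build chains on telomere proteins and on Axin of the Wnt pathway. Most other members, among them Tiparp, Parp12 and Parp14, attach single ADP-ribose units, and Parg cuts the chains down again. PJ34 occupies the NAD+ site of the enzyme, so it acts on the protein and not on the mRNA that the arrays measured.

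The label of the cells was set against marker genes. All 6 pan-leukocyte markers lay above the median probe set level of 4.42, among them Cd53 at a PBS mean of 11.5. Of 14 myeloid markers 3 did, Fcgr1 at a PBS mean of 6.82, Cebpa at 4.93 and Cebpe at 4.83, while Mpo, Elane, Lyz2 and Csf1r, which define granulocytes and macrophages, lay below it. Of 8 T cell markers 3 did too, Cd3g at 11.1, Cd3e at 10.4 and Cd3d at 4.81, while Cd2, Cd4, Cd5, Cd8a and Cd247 lay below it. The defining granulocyte and macrophage genes were thus low for a line with a myeloid label, and the markers did not settle another type. Among the rest, 2 of 8 NK cell, 0 of 5 B cell, 0 of 3 erythroid and 3 of 6 fibroblast markers lay above the median. Summed on the linear scale, the myeloid markers ran from 285 to 294 with PBS and from 340 to 359 with PJ34. Fcgr1, by far the highest of them and thus the largest part of the sum, was the gene that passed (0.63, SE 0.073). It did not pass with the methods' t-test (adjusted p = 0.0645). Across the 14 myeloid markers the median log2 difference was -0.02, so the rise of the sum does not stand for the list. The pan-leukocyte sums also lay wholly higher with PJ34, at 7598 to 7967 against 7032 to 7230 with PBS. So did the NK cell sums, at 119 to 131 against 108 to 113. Those of the B cell, erythroid and fibroblast markers overlapped between the groups. The T cell markers ran from 3558 to 3702 with PBS and from 3688 to 3844 with PJ34, ranges that overlap. Most of each sum came from Cd3g and Cd3e, whose differences of -0.05 and 0.18 did not pass (adjusted p = 0.778 and 0.196 from limma). Cd4 was the gene that passed (0.62, SE 0.062), at a PBS mean of 3.83 and thus a small part of the sum. Gzma of the NK list and Lcp1 of the pan-leukocyte list passed as well, at 0.90 and 0.28, and Lcp1 passed in 0 of the 6 fits without 1 array and Gzma in 2. The Lcp1 call also ended with array centring, with the replicate block and with all probe sets (adjusted p = 0.0806, 0.0979 and 0.108 from limma). That of Gzma ended with all probe sets (adjusted p = 0.0781 from limma) and with the methods' t-test (adjusted p = 0.146). The part of these shifts in the results on the PARP genes was not tested.

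In the PJ34 arrays Tiparp was higher and no other member passed the test. Its level was 1.38-fold that of the PBS arrays (95% confidence interval 1.24 to 1.54). Parp1, the gene of the targeted enzyme, Parp2, both tankyrases and Parg had mean ratios of 0.945 to 1.02 to their PBS level. With an adjusted p below 0.05 (limma) as the threshold, 1 of the 10 members was called higher and 0 lower. Of all 23412 probe sets tested, 1.72% were higher and 1.35% lower. Unadjusted, 2 members had a p below 0.05 in limma, Tiparp and Parp12, and so did 16.7% of all probe sets. In these bulk samples a change of RNA per cell and a change in the make-up of the culture cannot be told apart.

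The promoter windows of 3 members are shown here, Tiparp as the member that rose, Parp12 as the next highest difference and Parp1 as the gene of the inhibited enzyme. Each runs from 250 bases before to 50 bases after the start of the gene, 5′ to 3′ on the gene's own strand, from RefSeq on GRCm38.p6. Capitals mark GCGTG or its reverse complement, the core to which the aryl hydrocarbon receptor (AhR) binds, since Tiparp is a known target of this receptor. The Tiparp window is chr3:65528197-65528496 on the + strand, that of Parp12 chr6:39118300-39118599 on the - strand and that of Parp1 chr1:180568641-180568940 on the + strand.
Tiparp: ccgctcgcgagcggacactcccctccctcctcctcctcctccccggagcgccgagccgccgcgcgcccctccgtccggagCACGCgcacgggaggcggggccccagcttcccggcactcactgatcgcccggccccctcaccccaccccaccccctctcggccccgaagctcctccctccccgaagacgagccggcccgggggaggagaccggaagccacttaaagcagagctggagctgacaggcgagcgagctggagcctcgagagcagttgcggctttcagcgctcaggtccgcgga
Parp12: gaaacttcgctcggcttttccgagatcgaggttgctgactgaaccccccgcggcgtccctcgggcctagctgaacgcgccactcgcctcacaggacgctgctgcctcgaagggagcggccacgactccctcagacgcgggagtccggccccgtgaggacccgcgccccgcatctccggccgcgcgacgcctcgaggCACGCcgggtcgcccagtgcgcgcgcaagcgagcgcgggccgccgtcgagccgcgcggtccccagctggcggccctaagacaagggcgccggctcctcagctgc
Parp1: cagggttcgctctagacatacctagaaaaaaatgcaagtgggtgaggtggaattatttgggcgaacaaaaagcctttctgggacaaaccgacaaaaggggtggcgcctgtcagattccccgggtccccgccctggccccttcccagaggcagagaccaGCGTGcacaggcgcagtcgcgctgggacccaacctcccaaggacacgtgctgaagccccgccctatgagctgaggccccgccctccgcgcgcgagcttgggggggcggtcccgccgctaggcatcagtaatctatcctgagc
The match began 170 bases before the start in Tiparp, 54 in Parp12 and 92 in Parp1, on the opposite strand in Tiparp and Parp12 and on the gene's strand in Parp1. RefSeq windows were at hand for 7 of the 10 members, with 2 windows for Parg, and all 8 held GCGTG on either strand, against 32.4% of the 32851 windows of that length in the table. The 8 windows had a G and C content of 57.7% to 73.7%, and the median over all windows was 52.7%. Such a match describes the letters only. Members that did not pass the test held GCGTG as well.

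Tiparp encodes the mono-ADP-ribosyltransferase that is induced by dioxin through AhR and that modifies AhR in return. On the PBS arrays it read 7.31, 7.39 and 7.38, and on the PJ34 arrays 7.78, 7.92 and 7.79. The groups did not overlap, and the lowest PJ34 array lay 0.38 above the highest PBS array on the log2 scale. The difference was 0.46 (SE 0.068, adjusted p = 0.0105 from limma), the mean rising from 7.36 ± 0.045 to 7.83 ± 0.079 (SD, n = 3 each). By the size of a rise, Tiparp stood at place 222 of the 23412 probe sets. It also passed in each of the 6 fits without 1 array, with adjusted p of 0.0257 to 0.0493 from limma. Its call was lost with the methods' t-test (adjusted p = 0.0706) and when unnamed probe sets were tested too (adjusted p = 0.0529 from limma).

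**Figure D1:**
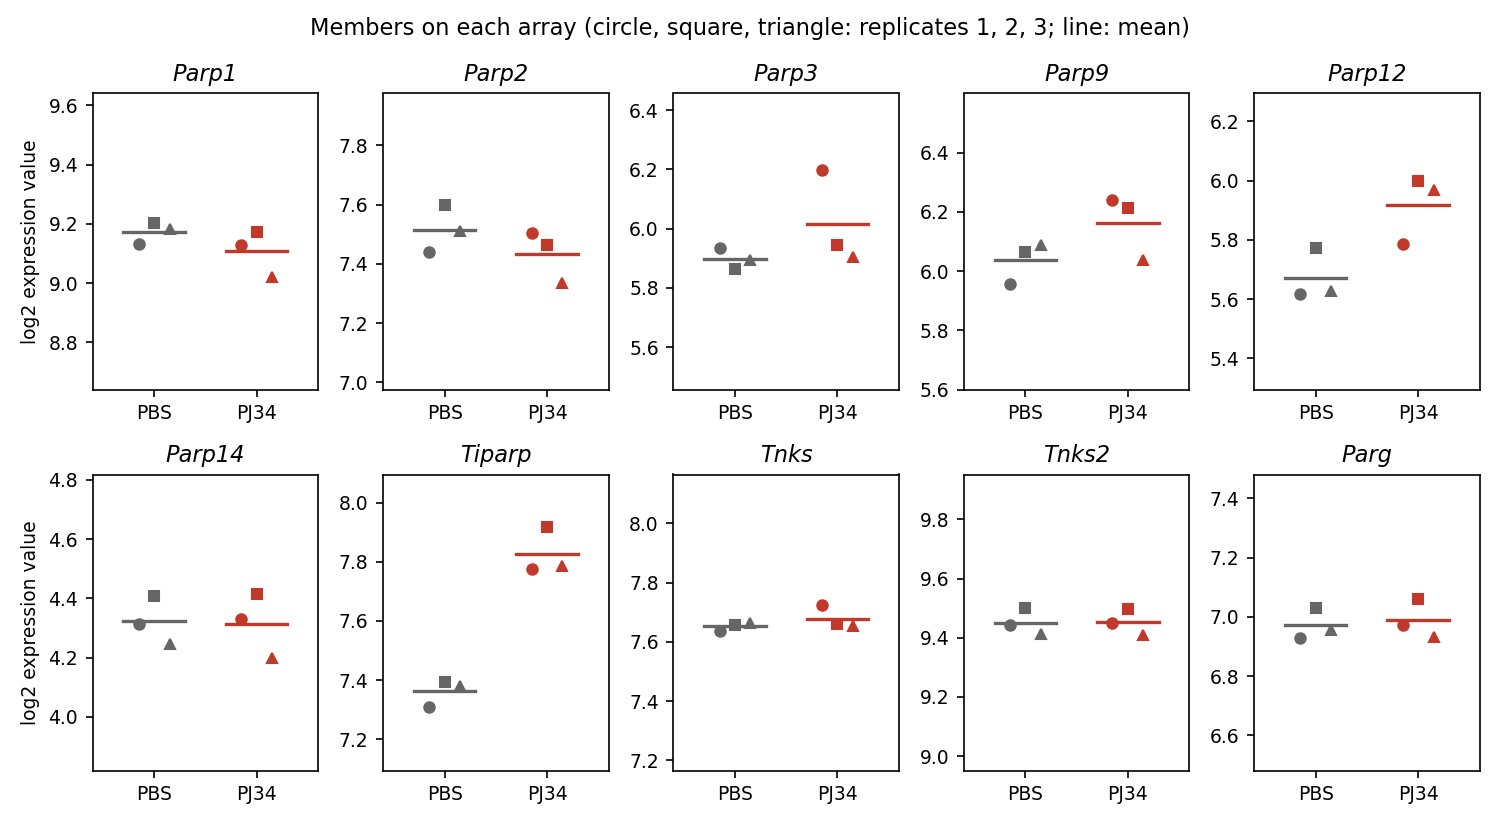
Log2 expression value (vertical axis, 1 unit high in every panel) of each member on the 3 PBS (grey) and 3 PJ34 (red) arrays; marker shapes are replicates 1 to 3 and lines are group means. Tiparp is clearly apart between the groups, Parp12 by a narrow gap, and the groups of the other 8 members overlap.

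Parp1, which senses DNA strand breaks and makes most of the cell's poly(ADP-ribose), read 9.13, 9.20 and 9.18 with PBS and 9.13, 9.17 and 9.02 with PJ34. The groups overlapped, with PJ34 replicate 3 the lowest of the 6. The difference was -0.07 (SE 0.066, adjusted p = 0.697 from limma), a ratio of 0.955 with an interval of 0.860 to 1.06. For Parp2, the closest relative of Parp1 in DNA repair, the PBS arrays gave 7.44, 7.60 and 7.51 and the PJ34 arrays 7.51, 7.46 and 7.34. Here too the groups overlapped and PJ34 replicate 3 was the lowest array, at a ratio of 0.945 (0.841 to 1.06). Parp3, which acts at DNA double-strand breaks, read 5.93, 5.86 and 5.89 with PBS and 6.20, 5.94 and 5.90 with PJ34. Its highest value was PJ34 replicate 1 alone, and the mean ratio was 1.09 (0.947 to 1.24). Neither Parp2 nor Parp3 passed (adjusted p = 0.662 and 0.567 from limma). Leaving out PJ34 replicate 1 brought the log2 difference of Parp3 from 0.12 to 0.03.

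Neither tankyrase passed the test. Tnks read 7.64, 7.66 and 7.66 with PBS and 7.72, 7.66 and 7.65 with PJ34, a ratio of 1.02 (0.927 to 1.12). Tnks2 read 9.44, 9.50 and 9.41 against 9.45, 9.50 and 9.41, a ratio of 1.00 (0.906 to 1.10). For Parg, which degrades poly(ADP-ribose), the PBS arrays gave 6.93, 7.03 and 6.96 and the PJ34 arrays 6.97, 7.06 and 6.93. The groups overlapped for each of these genes, and the Parg ratio was 1.01 (0.911 to 1.12). Adjusted p was 0.884 for Tnks, 0.998 for Tnks2 and 0.937 for Parg (limma). A missed threshold does not show equal levels, and the intervals give the changes that 3 arrays per group could not tell from 0.

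Parp9, Parp12 and Parp14 carry a known interferon response. Parp9, which works in a complex with the ubiquitin ligase Dtx3l, read 5.96, 6.07 and 6.09 with PBS and 6.24, 6.21 and 6.04 with PJ34. PJ34 replicates 1 and 2 lay above all PBS arrays and replicate 3 lay among them, at a ratio of 1.09 (0.967 to 1.23, adjusted p = 0.475 from limma). For Parp12, an antiviral mono-ADP-ribosyltransferase, the PBS arrays gave 5.62, 5.77 and 5.63 and the PJ34 arrays 5.78, 6.00 and 5.97. All PJ34 arrays lay above all PBS arrays, by a gap of only 0.012, since PBS replicate 2 and PJ34 replicate 1 nearly met. The Parp12 ratio was 1.19 (1.04 to 1.35), and limma gave an unadjusted p of 0.0152 and an adjusted p of 0.165, so Parp12 was not called. Over 13 alternative settings its adjusted p ran from 0.0634 to 0.384 (limma and the methods' t-test). Parp14, a macrodomain protein that enhances Stat6-driven transcription in mouse lymphocytes, read 4.31, 4.41 and 4.25 with PBS and 4.33, 4.41 and 4.20 with PJ34, a ratio of 0.994 (0.878 to 1.13, adjusted p = 0.977 from limma). It alone of the members lay below the median probe set level, and no detection call was used to tell its signal from background.

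**Figure D2:**
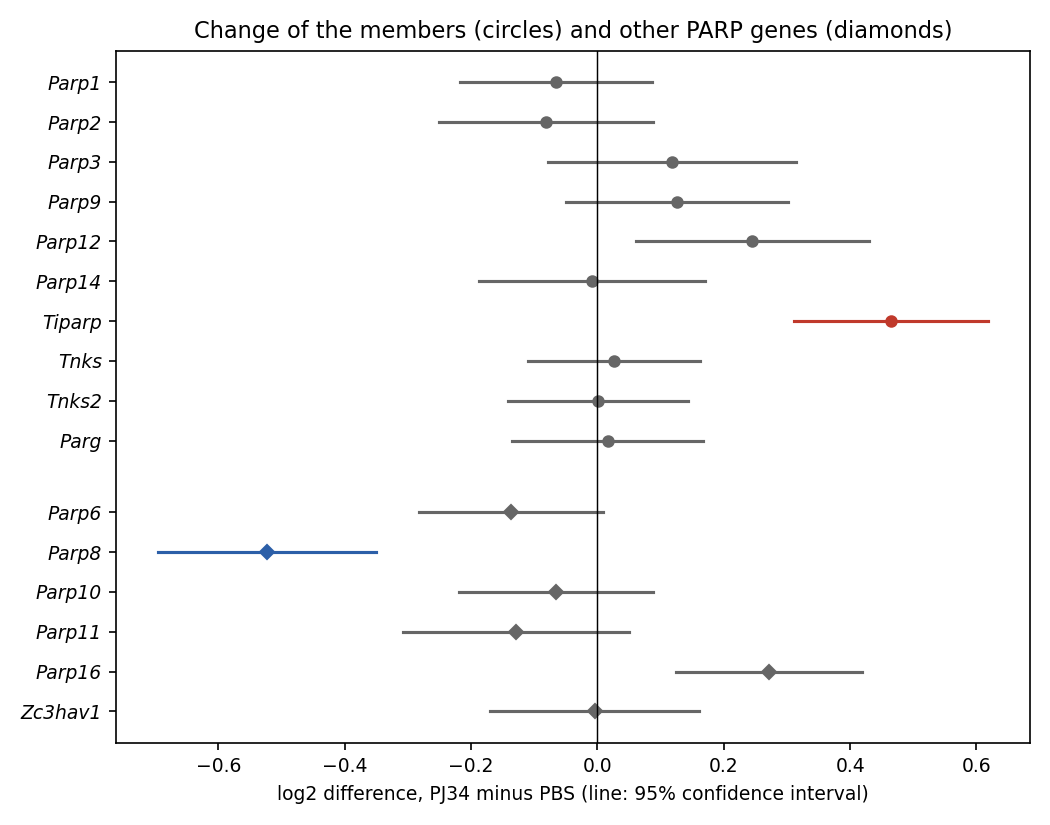
Log2 difference, PJ34 minus PBS (horizontal axis), with its 95% confidence interval for the 10 members (circles) and 6 other PARP genes (diamonds). Red and blue mark the genes that passed the test, Tiparp at 0.46 and Parp8 at -0.52, and grey ones did not pass.

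Across the 10 members the median log2 difference was 0.02, against 0.00 (0.0029) over all probe sets tested. Among the 9 members that did not pass, 6 had a difference above 0 and 3 below, from -0.08 to 0.25. All 3 PJ34 arrays lay above all 3 PBS arrays in 2 members, Tiparp and Parp12, and below in 0. Of all probe sets 12.6% lay wholly above and 10.9% wholly below. PJ34 replicate 3 was the lowest of the PJ34 arrays for 8 of the 10 members and the lowest of all 6 arrays for 4. The same counts were not taken over all probe sets, so they cannot be read as a trait of the members. Without PJ34 replicate 3 Tiparp had a difference of 0.48, Parp1 of -0.02 and Parp9 of 0.19.

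**Figure D3:**
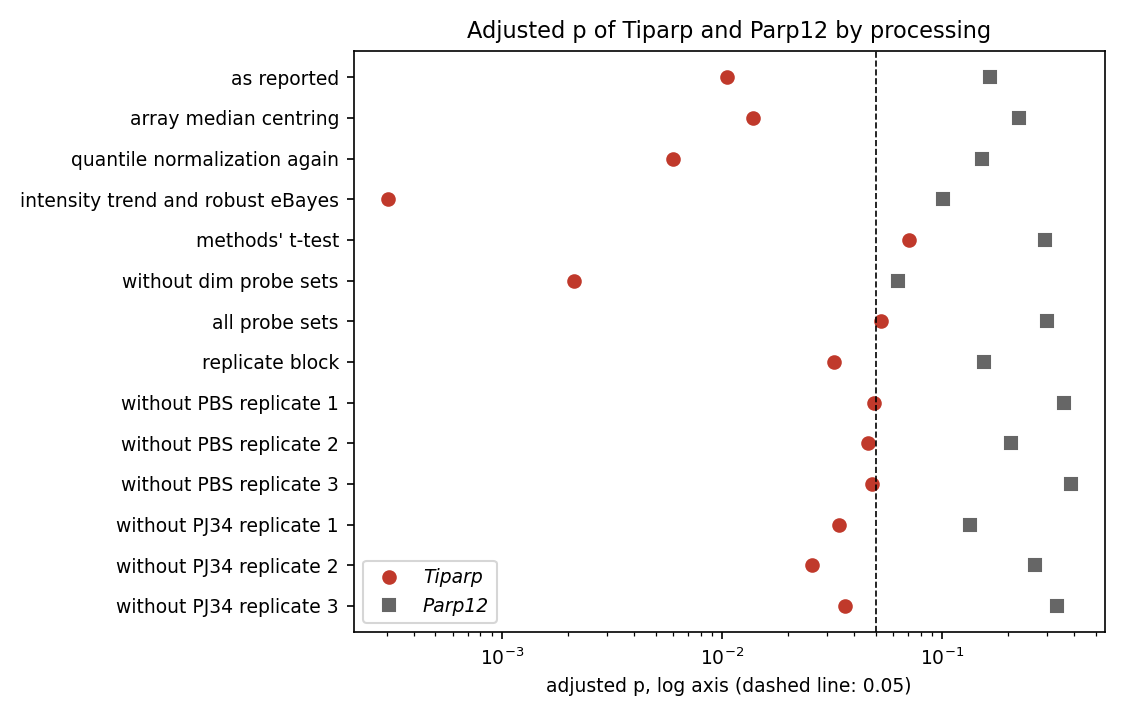
Adjusted p (horizontal log axis) of Tiparp (red circles) and Parp12 (grey squares) as reported and under 13 alternative settings (rows). The dashed line is 0.05. Tiparp lies to its left except with the methods' t-test (0.0706) and with all 35556 probe sets (0.0529), and Parp12 lies to its right in every row.

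The other PARP genes were described from a list of 7, of which 6 were measured. Of these, 1 was lower and none higher, against 1.35% and 1.72% of all probe sets. Their median log2 difference was -0.10. An unadjusted p below 0.05 in limma was reached by 2 of the 6 and by 16.7% of all probe sets. All PJ34 arrays lay above all PBS arrays in 1 and below in 3, against 12.6% and 10.9% of all probe sets. Parp6 (-0.14, SE 0.064) and Parp11 (-0.13, SE 0.079) were among those wholly below and did not pass (adjusted p = 0.332 and 0.477 from limma). Parp8, a mono-ADP-ribosyltransferase of little known function, read 7.13, 7.32 and 7.15 with PBS and 6.66, 6.75 and 6.62 with PJ34. The groups did not overlap, and Parp8 fell by 0.52 on the log2 scale (SE 0.076, adjusted p = 0.0103 from limma), also in each of the 6 fits without 1 array. As with Tiparp, its call was lost with the methods' t-test (adjusted p = 0.0872) and with the unnamed probe sets (adjusted p = 0.0560 from limma). Parp16, an enzyme of the endoplasmic reticulum membrane that is named after its value was seen, read 5.06, 5.12 and 5.14 against 5.31, 5.40 and 5.43 and did not pass (difference 0.27, adjusted p = 0.0665 from limma). The antiviral Zc3hav1, also called Parp13, had a difference of 0.00 (-0.0042, SE 0.073) and Parp10 of -0.06 (SE 0.067).

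Genes that work with Parp1 and Parp2 did not pass in either direction. Of 24 measured genes of base excision and single-strand break repair, 0 were higher and 0 lower in limma, and their median difference was -0.03. Over all probe sets 1.72% were higher and 1.35% lower. An unadjusted p below 0.05 in limma was reached by 2 of the 24 and by 16.7% of all probe sets. In 5 of the 24, Hpf1, Xrcc1 and Lig3 among them, all PJ34 arrays lay below all PBS arrays, and in 0 above. Over all probe sets 10.9% lay wholly below and 12.6% wholly above. The methods' t-test called 0 of the 24 after adjustment and had 3 below 0.05 unadjusted. Hpf1, the cofactor that steers Parp1 and Parp2 to serine, differed by -0.16 (SE 0.070, adjusted p = 0.304 in limma), and the scaffold Xrcc1 by -0.08 (SE 0.060). Lig3, the ligase that seals such breaks, read 7.79 in the PBS mean and differed by -0.29 (SE 0.089, unadjusted p = 0.00971 and adjusted p = 0.129 from limma). The replication clamp Pcna and the endonuclease Apex1 had differences of 0.03 and 0.03. None of 7 other genes that remove or break down ADP-ribose was called in limma, nor did any reach an unadjusted p below 0.05 there or in the methods' t-test. Their median difference was -0.06, with -0.03 for the hydrolase Adprhl2, -0.15 for the macrodomain protein Macrod1, -0.07 for Nudt5 and -0.10 for Nudt9.

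Among genes that make or use NAD+, the substrate of all PARP enzymes, 1 of 20 was higher and 2 were lower, with a median difference of 0.01. Over all probe sets 1.72% were higher and 1.35% lower. An unadjusted p below 0.05 in limma was reached by 6 of the 20 and by 16.7% of all probe sets. All PJ34 arrays lay above all PBS arrays in 3 and below in 5, against 12.6% and 10.9% of all probe sets. Nmnat1, the NAD+ synthase of the nucleus, read 5.32, 5.53 and 5.60 with PBS and 6.14, 6.21 and 5.96 with PJ34. It rose by 0.62 (SE 0.096, adjusted p = 0.0138 from limma), with no overlap between the groups, and lost its call without PBS replicate 2 or PJ34 replicate 1. The mitochondrial deacetylase Sirt3 (-0.34, SE 0.061, adjusted p = 0.0250 in limma) and the chromatin deacetylase Sirt6 (-0.36, SE 0.077, adjusted p = 0.0457 from limma) were lower. Sirt3 passed in 1 of the 6 fits without 1 array, the fit without PJ34 replicate 2, and Sirt6 in 0. With the replicate block neither passed (adjusted p = 0.0675 and 0.109 from limma). The rate-limiting NAD+ salvage enzyme Nampt did not pass, with a difference of 0.09 (SE 0.086).

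In the list of tankyrase partners and Wnt targets, 1 of 19 measured genes was higher and 1 lower, at a median of -0.01. Over all probe sets 1.72% were higher and 1.35% lower. An unadjusted p below 0.05 in limma was reached by 4 of the 19 and by 16.7% of all probe sets. All PJ34 arrays lay above all PBS arrays in 3 and below in 3, against 12.6% and 10.9% of all probe sets. Axin2, a tankyrase substrate and a feedback target of Wnt signalling, read 6.29, 6.37 and 6.43 with PBS and 6.86, 6.89 and 6.82 with PJ34. The groups were well apart, and Axin2 rose by 0.49 (SE 0.065, adjusted p = 0.00811 in limma), also in each of the 6 fits without 1 array but not with the methods' t-test (adjusted p = 0.0565). Tnks1bp1, a protein that binds tankyrase, fell by 0.50 on the log2 scale (SE 0.078, adjusted p = 0.0140 from limma) and lost its call without PBS replicate 2 or 3. Its values were 6.13, 6.28 and 6.20 with PBS and 5.81, 5.72 and 5.59 with PJ34. Axin1 (-0.01, SE 0.090) and the ubiquitin ligase Rnf146, which targets ADP-ribosylated Axin for decay (0.16, SE 0.11), did not pass. Sh3bp2 (0.27, SE 0.090) and Usp25 (0.15, SE 0.067) lay wholly above their PBS arrays and did not pass (adjusted p = 0.172 and 0.318 from limma). Apc (-0.07, SE 0.060) lay wholly below and did not pass either. Other Wnt targets of the list were not called. Nkd1, a Wnt antagonist, had a PBS mean of 6.91 and PJ34 values of 6.64, 6.57 and 6.65, below all PBS arrays, and its difference of -0.29 (SE 0.077) had an unadjusted p of 0.00524 and an adjusted p of 0.0939 in limma. For Lgr5 the difference was -0.17, for Notum -0.05, for Ccnd1 -0.03, for Nkd2 -0.06, for Lef1 0.04, for Rnf43 0.09 and for Znrf3 0.05. With the unnamed probe sets included, the calls of Nmnat1, Sirt3, Sirt6 and Tnks1bp1 were lost (adjusted p = 0.0717, 0.0797, 0.135 and 0.0670 from limma). So they were with the methods' t-test (adjusted p = 0.122, 0.0540, 0.146 and 0.102).

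No measured gene of the AhR or interferon lists passed the test. Over all probe sets 1.72% were higher and 1.35% lower, so 0 calls in lists this short says little about either pathway. An unadjusted p below 0.05 in limma was found in 16.7% of all probe sets. Of 8 AhR pathway genes 0 were higher and 0 lower in limma, with 1 at an unadjusted p below 0.05, and their median difference was 0.04. Ahr itself, at a PBS mean of 4.50, had a difference of -0.09 (SE 0.094), its partner Arnt one of -0.02 (SE 0.060) and the target Cyp1b1, at a PBS mean of 3.07 and thus below the median level, one of 0.06 (SE 0.080). Nqo1, a detoxifying enzyme that AhR can induce, read 3.13, 3.21 and 2.52 with PBS and 3.39, 3.36 and 3.51 with PJ34. The groups did not overlap, with PBS replicate 3 well below the rest, and the difference of 0.47 (SE 0.16) was as high as that of Tiparp but did not pass (unadjusted p = 0.0188, adjusted p = 0.184 from limma). The targets Aldh3a1 (0.12, SE 0.058, also without overlap) and Cyp1a1 (0.19, SE 0.12) did not pass either, nor did Cyp1a2 (0.02) and Ahrr (-0.02). Only 2 of the 8 genes, Ahr and Arnt, lay above the median level. Of 26 measured interferon-stimulated genes likewise 0 were higher and 0 lower in limma, with 1 at an unadjusted p below 0.05 and a median difference of 0.03. Dtx3l, the partner of Parp9, read 7.11 in the PBS mean and differed by -0.11 (SE 0.0635, adjusted p = 0.465 in limma), and Trim25 by 0.13 (SE 0.088). After adjustment the methods' t-test called 0 genes of either list, with 1 AhR and 0 interferon genes below 0.05 unadjusted. Of the 26 interferon genes 11 were above the median level.

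**Figure D4:**
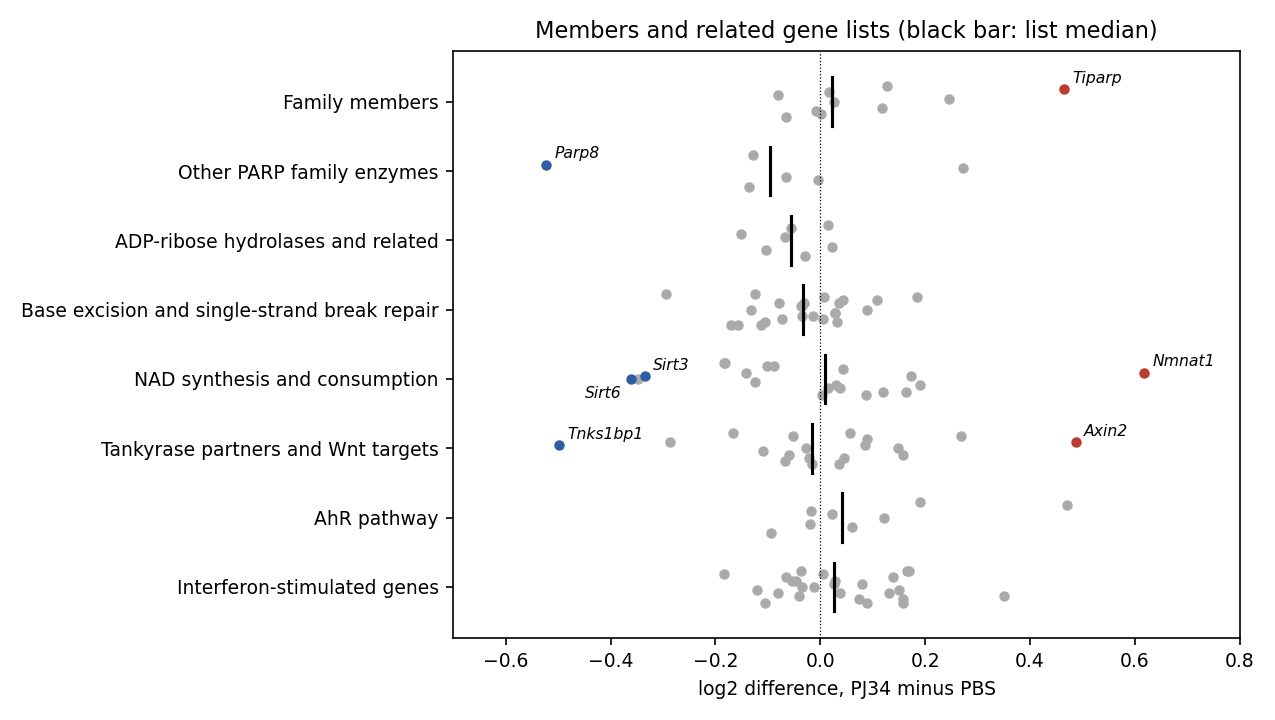
Genes of the members' list and 7 related lists, each list on its own line, plotted by log2 difference between PJ34 and PBS (horizontal axis). Named points in red (higher) or blue (lower) passed the test, grey ones did not, and black bars are list medians, which lie between -0.10 and 0.04.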

How the data were processed

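C1498 cells given PJ34 or PBS were profiled on 6 arrays, 3 per group, grouped by their labels. The deposited values are log2 expression per probe set, which the authors obtained by RMA (background correction, quantile normalization, probe summary) in Affymetrix Expression Console 1.3.1, per the submitters' processing notes. They were used as deposited, so the background correction could not be varied. The genome build was not given in the sources used here. The paper speaks of 3 independent experiments for the microarray, but nothing in the labels says that the arrays came from separate cultures. The p-values therefore measure the spread between these arrays, whose number limits the precision.

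Of 35556 probe sets, 21789 had 1 gene symbol and 1621 several in the platform's table. With 2 more that the study names, 23412 were tested with limma 3.58.1 in R 4.3.3 (PJ34 minus PBS, Benjamini-Hochberg adjustment, threshold 0.05), after tests on simulated data. A gene was read from its probe set with exactly 1 symbol and the highest mean. Named are all members, per related list up to 4 genes that passed and, with fewer than 2 such genes, those of highest mean, and a set of partner and target genes chosen by function, Cyp1b1 among them. Some named genes fall outside that rule and were named after their values were seen. They are Parp6, Parp11, Parp16, Sh3bp2, Usp25, Apc, the other AhR and Wnt targets, the flanking genes and several cell type markers. Members and lists were chosen with earlier results of these data known. The alternatives were array centring, repeated quantile normalization, an intensity trend with robust eBayes, the methods' t-test, a filter on dim probe sets, all probe sets, the replicate number as a block and leaving out each array.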

Additional observations from a re-analysis of the deposited data

How the results depend on the processing

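The calls of the members were recomputed under 13 alternative settings. Tiparp was the only member called in any of them. It was called in 11, and the count of higher members fell from 1 to 0 with the methods' t-test and with all 35556 probe sets tested. No member was called lower in any setting. Over all probe sets, 403 higher and 315 lower became 1009 and 921 with an intensity trend and robust eBayes, 892 and 777 without dim probe sets, 78 and 65 with the methods' t-test, 112 and 76 with all probe sets, and 222 and 143 with the replicate block. Array centring gave 333 and 366, so that lower calls outnumbered higher ones, and repeated quantile normalization gave 513 and 463. Leaving out 1 array at a time, the higher calls ran from 148 to 282 and the lower ones from 83 to 321. The cause of these shifts was not tested. The labels do not say whether same-numbered arrays belong together. Their deviations from the group means correlated at -0.013, 0.13 and -0.0092 for replicates 1, 2 and 3. Of the 6 arrays 2 correlated best with their own number, and such values cannot decide whether the numbers mark pairs. The block ended no call of a member. Differences close to 0 changed sign. Array centring gave -0.020 for Tnks2 and -0.0036 for Parg, and repeated quantile normalization gave -0.0088 for Tnks2. Without 1 array, Tnks2 ran from -0.022 to 0.025, Parg from -0.019 to 0.046 and Parp14 from -0.058 to 0.049. At an unadjusted p below 0.05 the t-test passed 2 members, and 15.9% of all probe sets. Parp14 has no value without dim probe sets, and means of several probe sets were not run, as each member has 1. Of the 129 member values under these settings, 117 kept their direction and side of the threshold.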

Other observations

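The genes that flank the members were looked up in the RefSeq annotation, as values with no explanation. Of 19 distinct protein-coding neighbours other than members, 18 were measured, and 0 were higher and 0 lower in limma. Over all probe sets 1.72% were higher and 1.35% lower. An unadjusted p below 0.05 was reached by 4 of the 18 neighbours and by 16.7% of all probe sets. The differences of the neighbours ran from -0.20 (Kdm7a, beside Parp12) to 0.23 (Dusp4, beside Tnks). Tiparp lies between Ssr3, with a difference of -0.10 (SE 0.065), and Lekr1, with 0.12 (SE 0.075), and neither passed. Parp9 and Parp14 lie on either side of Dtx3l, and the 3 genes differed by 0.13, -0.01 and -0.11. Timm23, which lies beside Parg, differed by -0.04 (SE 0.067).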
